A study of Mus musculus with 2 samples.

Results

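The genes described here are those of the mitochondrial respiratory chain and ATP synthase, encoded in the nucleus or in mitochondrial DNA. Members were taken by symbol from the 32285 genes of the matrices: nuclear genes starting with Nduf, Uqcr, Cox4i, Cox5, Cox6, Cox7, Cox8 or Atp5, the genes Sdha, Sdhb, Sdhc and Sdhd, and the 13 protein genes starting with mt-. This gave 107 members, of which 94 are nuclear and 13 are mitochondrially encoded. By complex, the nuclear members comprise 37 of complex I, 8 named as complex I assembly factors, 4 of complex II, 8 of complex III, 20 of complex IV and 17 of complex V. The mt- members comprise 7 of complex I, 1 of complex III, 3 of complex IV and 2 of complex V. Ndufa4 carries a complex I name but is counted with complex IV, of which its protein is a subunit, and Ndufb1-ps is annotated as a noncoding RNA.

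The study compared 2 single-cell RNA libraries made in droplets from sorted CD4 and CD8 positive cells of lung tumours, with 1 library for each group. In both, lethally irradiated recipients carrying Lkb1fl/fl received donor bone marrow, and cells were taken 8 weeks after intranasal adenoviral Cre (Ad-Cre). The WTKL donors were Tmem173fl/fl and the LYZKL donors were Tmem173fl/fl;Lyz2-Cre. Lyz2-Cre is a recombinase driven by a myeloid promoter, so T and B cells of the LYZKL donors carry the floxed alleles but are not its main target. The WTKL treatment label also names tamoxifen and the LYZKL label does not, and whether mice were pooled is not stated.

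Electrons from NADH enter the chain at complex I and those from succinate at complex II. They pass through ubiquinone to complex III and through cytochrome c to complex IV, which reduces oxygen, and the proton gradient drives ATP synthesis by complex V. Complexes I, III, IV and V combine nuclear and mitochondrially encoded subunits, whereas complex II is wholly nuclear. Proliferating T cells raise both glycolysis and respiration, while neutrophils have few mitochondria.

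With 1 library per group there was no replicate, no test was possible, and each ratio compares the LYZKL library with the WTKL library. All intervals are at 95% and cover counting error only, so they leave out how much mice differ. Cells were assigned to classes by raw UMI counts of marker genes, without clustering, and UMIs were summed per class and library and scaled by the UMI total of that class to CPM. A member counted as measured at a mean of at least 30 CPM over both libraries. Differences were counted at the size of at least 25% higher, or equivalently 20% lower, in LYZKL, called the size limit below. The classes of 1 library share mice, preparation and free RNA, so they are not independent of each other.

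The matrices hold 12204 and 13607 barcodes in WTKL and LYZKL, where the labels state 6609 and 7202 cells, and 100 barcode sequences occur in both. Of 12003 and 13451 kept cells, with medians of 4840 and 5327 UMIs, 69.8% and 70.7% fell in a gate. Foxp3+ T cells numbered 463 and 479, CD4 T cells 3635 and 3166, CD8 T cells 1673 and 2381, and cycling T cells 534 and 863. The gates also held 556 and 386 B cells, 240 and 212 macrophages or monocytes, and 1280 and 2022 neutrophils, although the labels name T cells alone. Every gene of the independent T, B, macrophage or monocyte and neutrophil marker lists was detected in its own class in both libraries. All genes of these lists but that of B cells were also detected in every other class, so detection does not separate the gates. The 6 B cell check markers summed to 3572 and 3498 CPM in B cells and 14.3 and 14.0 CPM in macrophages or monocytes. The 7 neutrophil check markers summed to 100472 and 87926 CPM in neutrophils and 2580 and 2522 CPM in macrophages or monocytes. The 7 T cell check markers summed to 4685 and 4686 CPM in Foxp3+ T cells, 503 and 363 CPM in macrophages or monocytes and 248 and 209 CPM in neutrophils. The 7 macrophage or monocyte check markers separated less, at 16257 and 17513 CPM in their own class and 5390 and 5364 CPM in neutrophils. The B gate also held plasma cell RNA, at 22373 and 19691 CPM over 5 markers. Tmem173, the targeted gene, stood at 17.8 and 5.42 CPM in neutrophils of WTKL and LYZKL, at 53.0 and 49.7 CPM in macrophages or monocytes, and at 32.4 and 85.6 CPM in Foxp3+ T cells. These 3′ counts need not cover the deleted part, so they do not check the labels.

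Nuclear respiratory chain transcripts took the largest share of UMIs in cycling T cells, at 2.08% in WTKL and 2.15% in LYZKL, and in macrophages or monocytes, at 1.98% and 2.10%. In Foxp3+ T cells they made up 1.54% and 1.60%, in CD4 T cells 1.48% and 1.60%, and in CD8 T cells 1.50% and 1.57%. The lowest shares were those of B cells, 1.07% and 1.02%, and of neutrophils, 0.954% and 1.11%. The CD4, CD8 and Foxp3+ T classes overlapped in this order.

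The 13 mt- genes were distributed differently. Their share lay between 0.979% and 1.52% in all classes but neutrophils, where it was 0.420% in WTKL and 0.377% in LYZKL. Cycling T cells, with the highest nuclear share, had 1.11% and 1.05% mt- UMIs, below CD8 T cells at 1.36% and 1.34%. Over single neutrophils the median mt- share was 0.199% and 0.197%, below the summed share, so the spread over cells was uneven.

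Nuclear UMIs per mt- UMI therefore ran from 0.861 and 0.789 in B cells to 2.27 and 2.94 in neutrophils. In the T classes the ratio was higher in LYZKL each time: 1.40 against 1.63 in Foxp3+ T cells, 1.18 against 1.31 in CD4 T cells, 1.10 against 1.18 in CD8 T cells and 1.86 against 2.04 in cycling T cells. The share of Foxp3+ T cells with more mt- than nuclear UMIs was 25.1% in WTKL and 14.6% in LYZKL. In B cells and macrophages or monocytes the ratio was instead lower in LYZKL, 1.47 against 1.38 in the latter.

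**Figure D1:**
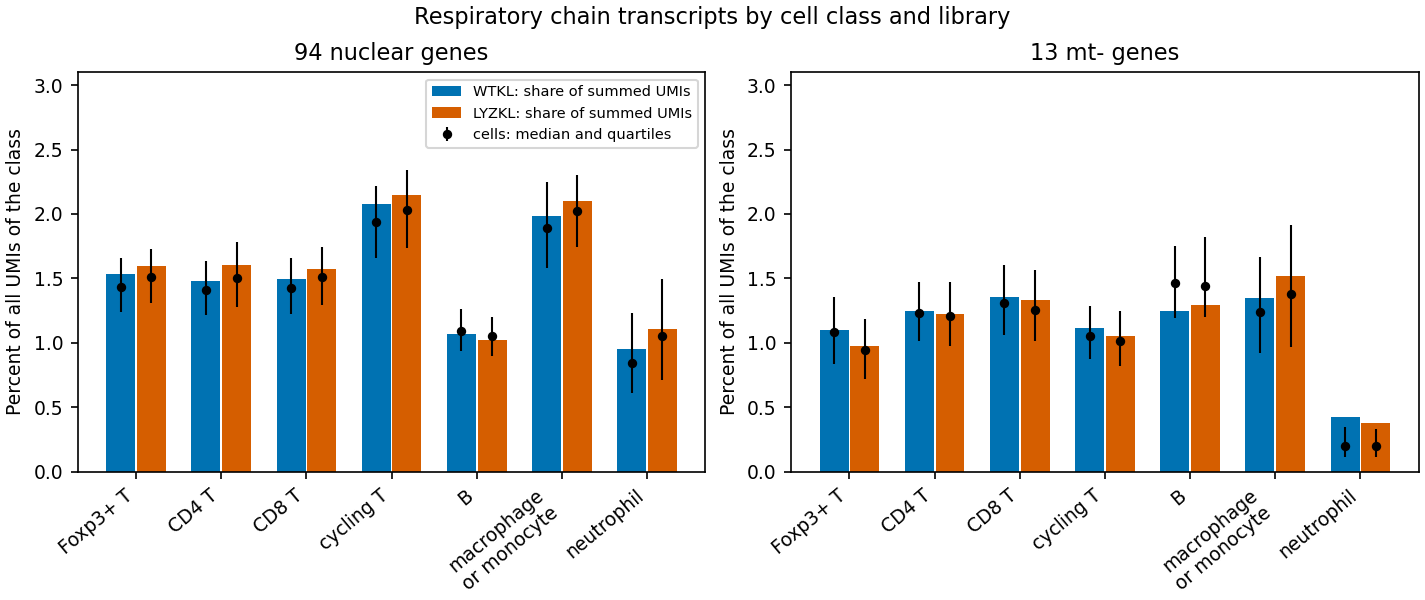
Share of all UMIs of a class (percent, y axis) held by the 94 nuclear genes (left) and the 13 mt- genes (right), by cell class and library; bars are summed UMIs, points the median over cells and lines the quartiles. Nuclear shares reach 2.15% in cycling T cells of LYZKL, and mt- shares are lowest in neutrophils at 0.420% and 0.377%.

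Of the 94 nuclear members, 74 were measured in every class and 13 in none. Of the 13, 5 are complex I assembly factors (Ndufaf1, Ndufaf2, Ndufaf5, Ndufaf6 and Ndufaf7) and 8 are tissue isoforms or their relatives. Over the 7 classes, Cox4i2, the isoform known from lung and induced by low oxygen, had 40 UMIs in WTKL and 53 in LYZKL. Of these UMIs 26 and 42 lay in the B gate, at 9.57 and 21.7 CPM. The muscle isoforms Cox6a2 and Cox7a1 had 11 and 12, and 56 and 58, UMIs. The testis isoform Cox6b2 had 123 and 129, and Ndufa4l2, an isoform of Ndufa4 induced by hypoxia, had 8 and 1. Cox7b2, Cox8b and Cox8c had no UMI in 50043656 and 61786798 UMIs, which allows up to 0.0599 and 0.0486 CPM (3 counts of the total).

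Among the 81 nuclear members with at least 30 CPM in 1 class, levels differed between the highest and lowest class by a median of 2.68-fold, from 1.61- to 8.16-fold. The highest class was cycling T cells for 50 members and macrophages or monocytes for 28. The lowest was neutrophils for 50 and B cells for 31. The smallest ranges included Sdha, the flavoprotein of complex II, at 86.8 and 88.6 CPM in cycling T cells and 55.6 and 52.9 CPM in neutrophils. Its partners differed more, since Sdhb, the iron-sulfur subunit, stood at 173 and 178 CPM in cycling T cells and 81.7 and 91.1 CPM in neutrophils. The membrane anchors Sdhc and Sdhd were instead highest in macrophages or monocytes, Sdhc at 96.8 and 80.6 CPM and Sdhd at 127 and 132 CPM.

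The 10 members with the widest ranges were Ndufaf4, Ndufa5, Ndufa9, Atp5g3, Ndufc2, Ndufa4, Ndufa11, Atp5g2, Ndufa12 and Atp5o, and all were lowest in neutrophils. Ndufaf4, an assembly factor of complex I, had 6.4 and 7.1 CPM in neutrophils of WTKL and LYZKL but 52.3 and 57.7 CPM in CD8 T cells. Atp5g3, a gene for the c subunit of the ATP synthase ring, had 89.8 and 90.9 CPM in neutrophils and 579 and 574 CPM in cycling T cells. Ndufc2, an accessory complex I subunit, peaked in macrophages or monocytes at 263 and 243 CPM, next to 227 and 236 CPM in cycling T cells. For these genes the gap between neutrophils and the other classes was wider than that between libraries. Neutrophils also held 6.49% and 6.68% ribosomal protein UMIs, against 17.8% to 28.9% in the other classes.

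**Figure D2:**
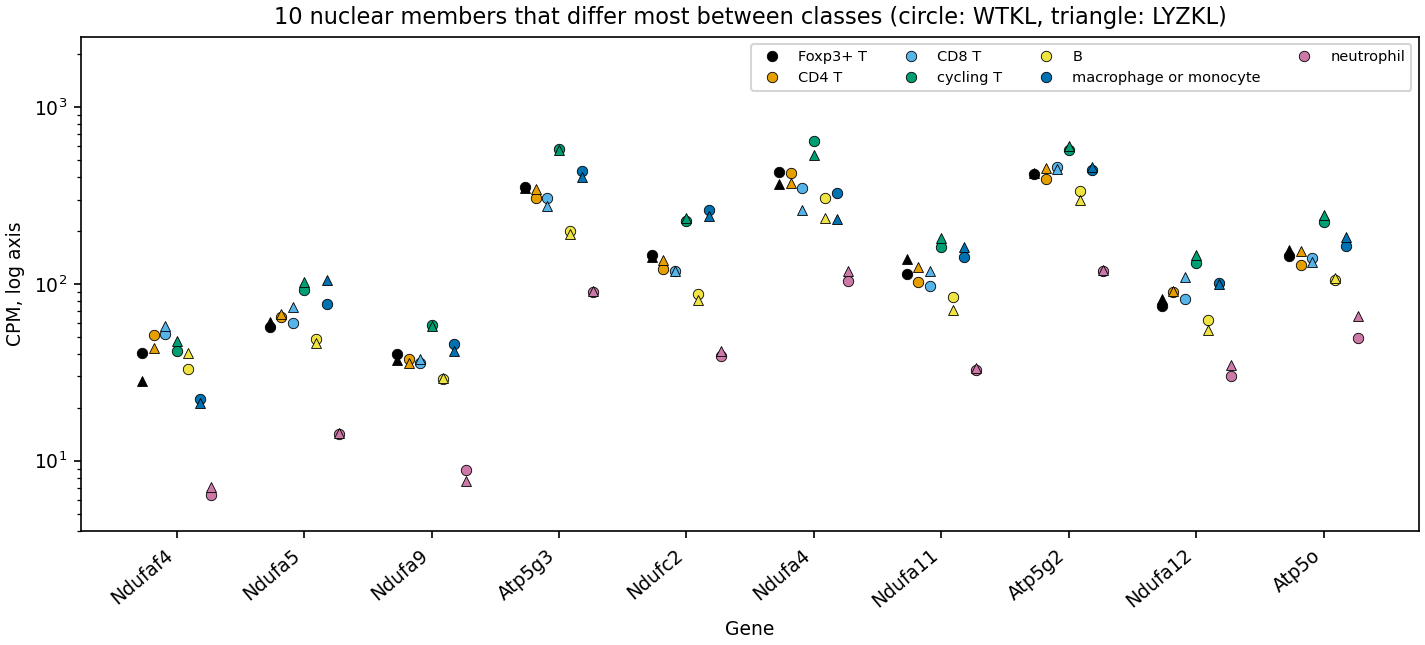
CPM (log axis) of the 10 nuclear members that differ most between classes, by gene on the x axis; colours are cell classes, circles WTKL and triangles LYZKL. Neutrophils are lowest for each gene, with Ndufaf4 at 6.4 and 7.1 CPM.

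Between the libraries, nuclear members were mostly somewhat higher in LYZKL and mt- members mostly somewhat lower, with B cells as the exception for the first and B cells and macrophages or monocytes for the second. The nuclear medians of B cells and CD8 T cells changed sign under another gate or scaling, as given with each. Most of these differences were under the size limit. By medians over members, the nuclear shift was widest in neutrophils and the mt- shift in neutrophils and Foxp3+ T cells, whereas the summed mt- UMIs shifted most in macrophages or monocytes (log2 ratio 0.17, against -0.17 in Foxp3+ T cells and -0.15 in neutrophils). These ratios rest on summed UMIs, and over single neutrophils the median mt- share was nearly the same, 0.199% in WTKL and 0.197% in LYZKL. The values below follow the classes and then the complexes.

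In neutrophils 70 of 74 measured nuclear members were higher in LYZKL, with a median log2 ratio of 0.24 where all measured genes had a median of 0.07. At least 25% higher were 24 members, and 16.9% of the 3930 measured genes were that much higher, whereas no member and 10.3% of genes were at least 20% lower. The 24 comprised 12 of complex I and 4 each of complexes III, IV and V. Ndufs8, an iron-sulfur subunit of complex I, had the widest difference, with 31.7 CPM in WTKL and 50.4 CPM in LYZKL (log2 ratio 0.67, 0.41 to 0.94). Ndufb3 and Ndufb6, accessory subunits of the complex I membrane arm, followed with 75.9 and 110 CPM, and 54.6 and 79.4 CPM.

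Of complex II, 3 of 4 members were higher in these cells and none was past the limit, with a median of 0.13. All 8 members of complex III were higher, among them Uqcrc1, a core subunit, at 35.1 against 49.1 CPM, and Uqcrfs1, the Rieske protein, at 54.8 against 74.2 CPM. All 17 members of complex V were higher, led by Atp5g1, another c subunit gene, at 54.4 against 78.8 CPM. Cox5b of complex IV stood at 351 and 470 CPM. The lowest ratios were those of Cox7a2l, an assembly factor of supercomplexes, at 180 and 157 CPM (-0.20, -0.32 to -0.08), Cox6c at 169 and 160 CPM, and Sdha at 55.6 and 52.9 CPM, the last 2 with intervals that include 0.

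Neutrophils were not alike in the 2 libraries in other ways. Cells with at least 2 UMIs of the chemokine gene Ccl3 made up 49.5% of WTKL and 65.2% of LYZKL neutrophils. Among neutrophils with no Ccl3 UMI (528 and 549 cells) the nuclear share was 0.868% in both libraries, with an interval of the log2 ratio from -0.03 to 0.03. Among those with at least 2 (633 and 1318 cells) it was 1.02% in WTKL and 1.21% in LYZKL, a log2 ratio of 0.25 (0.23 to 0.27), and 31 of 75 members were at least 25% higher (21.5% of 3987 genes) and none at least 20% lower (12.1%). In cells with no Ccl3 UMI 3 of 66 were (8.28% of 3589 genes), and 3 were at least 20% lower (14.4%). This split was chosen after the data were seen, and the part that Ccl3 or cell depth (medians of 3480.5 and 3823 UMIs) has in the nuclear difference was not tested.

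In CD4 T cells 62 of 80 measured nuclear members were higher in LYZKL, with a median of 0.12 beside -0.01 over all measured genes. At least 25% higher were 3 members (5.69% of 4796 genes), namely Cox6a1, Cox5b and Ndufa6, and none was past the limit downward (4.92% of genes). Cox5b, a nuclear subunit on the matrix side of complex IV, had 278 CPM in WTKL and 366 CPM in LYZKL (0.39, 0.34 to 0.44). Ndufa6, an accessory complex I subunit, had 216 and 275 CPM. The lowest were Ndufaf4 at 51.3 and 43.6 CPM, Ndufa4, and Ndufa3, an accessory complex I subunit, at 116 and 102 CPM. Median depth was 4820 UMIs per CD4 T cell in WTKL and 6055.5 in LYZKL, and its part in the difference was not tested. The summed nuclear log2 ratio was 0.12 among CD4 T cells with at least 2 UMIs of the naive genes Ccr7, Lef1 and Igfbp4, and 0.13 among those with none. The former made up 32.5% of WTKL and 39.1% of LYZKL cells, and the 6 CD8 T cell check markers summed to 345 and 756 CPM in this class, whose part in the difference was not tested.

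In Foxp3+ T cells, the class closest to the series' question on regulatory T cells, the nuclear median was 0.05 (all genes -0.0046), with 52 of 80 higher. At least 25% higher were 3 members (7.84% of 4964 genes), Ndufs3, Cox6a1 and Sdhb, and 2 were at least 20% lower (8.32%), Ndufaf4 and Ndufaf8. Ndufs3, a core subunit of complex I, had 71.3 and 93.8 CPM (0.40, 0.12 to 0.68), and Sdhb had 127 and 159 CPM (0.33, 0.12 to 0.54). Both measured assembly factors of complex I were lower, Ndufaf4 at 40.6 and 28.2 CPM (-0.52, -0.96 to -0.09) and Ndufaf8 at a log2 ratio of -0.34 (-0.72 to 0.03). Both counts were below the shares of all genes, 3 and 2 of 80, and median depth was 4503 UMIs per cell in WTKL and 5579 in LYZKL. The 6 regulatory T cell check markers summed to 6194 and 6779 CPM here against 1795 and 1981 CPM in CD4 T cells.

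CD8 T cells had 58 of 80 nuclear members higher, with a median of 0.09, close to the 0.07 of all genes. With TMM scaling, which rests on a trimmed mean of gene ratios, the median was -0.01 (all genes -0.04). Here 6 members were at least 25% higher (14.8% of 4657 genes), all of complex I but Cox6a1. At least 20% lower was 1 member, Ndufa4 (6.14%). With TMM scaling 1 was higher and 1 lower, but these shares of all genes do not apply to that scaling. After Cox6a1 came Ndufa12, an accessory complex I subunit, at 82.0 and 110 CPM (0.42, 0.30 to 0.55), and Ndufb9 at 121 and 160.0 CPM. Uqcrc2, a core subunit of complex III, was among the lowest at 109 and 96.0 CPM, and so was Ndufa3 at 90.6 and 79.8 CPM. The libraries differed in the kind of CD8 T cell gated, since 40.6% of WTKL but 13.9% of LYZKL cells had at least 2 naive-gene UMIs. Within those cells the nuclear share was 1.40% and 1.43%, and within cells with no such UMI it was 1.61% in both (log2 ratio 0.01, -0.01 to 0.02). The whole class had a summed log2 ratio of 0.07. This split was chosen after the data were seen, and the part of the naive cells in the nuclear difference was not tested.

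In cycling T cells 60 of 81 nuclear members were higher, with a median of 0.06 (all genes 0.01). At least 25% higher was 1 member, Cox6a1 (3.8% of 4915 genes), and no member was past the limit downward (2.58%). Ndufs1, the largest core subunit of complex I, had 44.8 and 54.2 CPM, and Ndufs3 had 78.3 and 93.9 CPM. Cox5a was lower, at 733 and 680.4 CPM, and Sdhc stood at 79.9 and 71.97 CPM with an interval that includes 0. The cycling class held unlike mixtures in the 2 libraries, with 2853 and 1126 CPM over the 6 CD8 T cell check markers, and the part of that mixture in these values was not tested.

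In B cells 52 of 79 nuclear members were lower in LYZKL, with a median of -0.06 (all genes 0.02). With strict gates, which need more marker UMIs and allow none of another lineage (360 and 254 cells), the median was 0.05 (all genes 0.10). At least 20% lower were 4 members (8.16% of 4190 genes), namely Ndufab1, Ndufa4, Ndufb2 and Ndufb3, and no member was past the limit upward (11.1%). Ndufab1, the mitochondrial acyl carrier protein, had 72.5 and 53.8 CPM (-0.43, -0.79 to -0.08). Ndufb2, an accessory complex I subunit, had 54.5 and 43.5 CPM, with an interval that includes 0. The highest were Ndufaf4 at 33.1 and 40.9 CPM, Ndufv1 at 29.1 and 35.7 CPM and Ndufv3 at 82.5 and 97.8 CPM, each with an interval that includes 0. Of the 17 members of complex V, 14 were lower here, whereas in neutrophils all 17 were higher. Plasma cell RNA also differed in the B gate, as given above, and its part was not tested.

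Macrophages or monocytes and neutrophils are the myeloid classes, which Lyz2-Cre is meant to target. Whether Tmem173 was deleted in the gated cells was not checked. In macrophages or monocytes 59 of 79 nuclear members were higher, with a median of 0.07 (all genes -0.04). At least 25% higher were 5 members (8.41% of 4409 genes), namely Cox6a1, Ndufv3, Ndufa5, Ndufs7 and Ndufb4, and 2 were at least 20% lower (12% of genes), Ndufa4 and Uqcrc2. Ndufv3, a small complex I subunit, had 174 and 241 CPM (0.48, 0.30 to 0.65), and Ndufa5 had 77.5 and 105 CPM (0.43, 0.17 to 0.70). Uqcrc2 was lower, at 89.3 and 65.0 CPM (-0.46, -0.75 to -0.17), as was Ndufa4. Sdhc stood at 96.8 and 80.6 CPM, with an interval that includes 0. RNA of other cells differed in this gate, with 56.1 and 218 CPM over 4 platelet markers and 157 and 275 CPM over the 5 neutrophil gate genes, and its part was not tested.

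**Figure D3:**
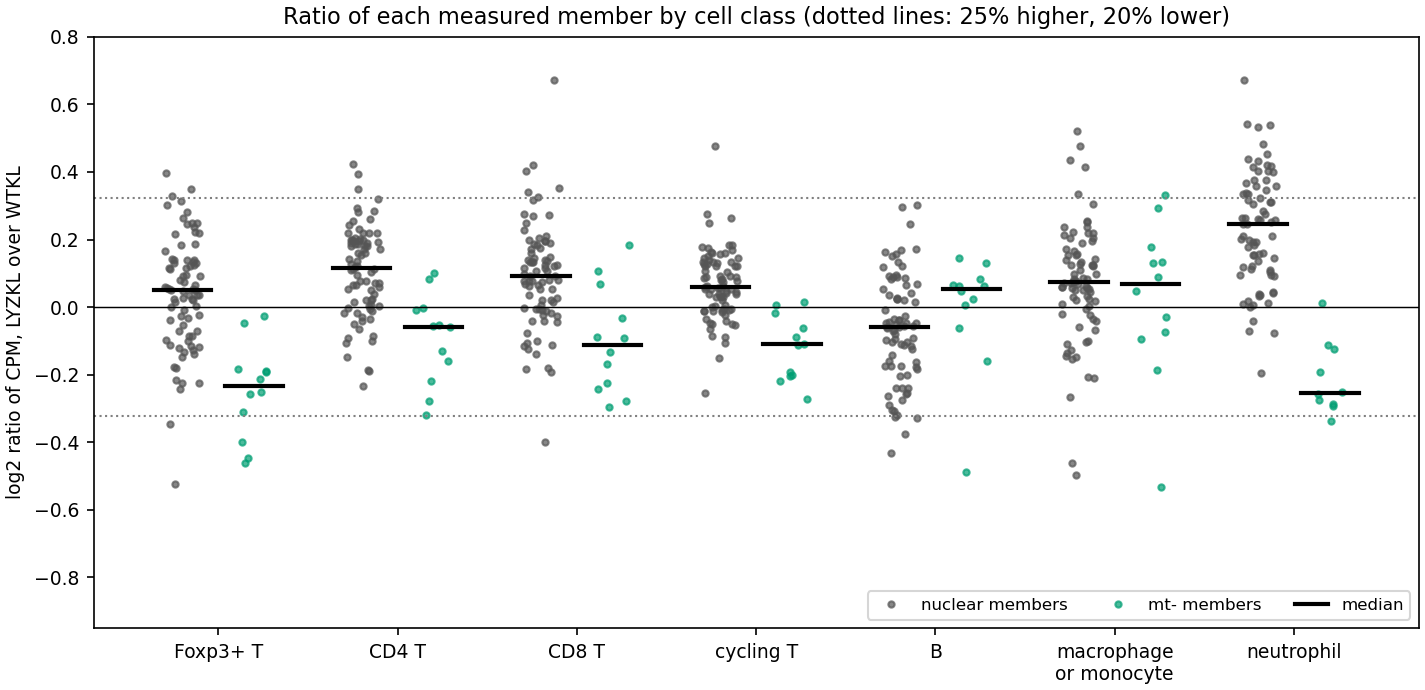
Log2 ratio of CPM, LYZKL over WTKL (y axis), of each measured nuclear (grey) and mt- (green) member by cell class; black bars are medians and dotted lines mark 25% higher and 20% lower. The nuclear median is highest in neutrophils (0.24), and the mt- median lies below the nuclear one in the T classes and neutrophils and above it in B cells. In macrophages or monocytes the medians are close, 0.0685 (mt-) and 0.0745 (nuclear), while the log2 ratios of summed UMIs are 0.17 and 0.08.

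Cox6a1 and Ndufa4, both nuclear subunits of complex IV, were at opposite ends of these lists in most classes. Cox6a1 (ENSMUSG00000041697) lies on the minus strand at chr5:115345642-115348981 of GRCm38 and codes for a small subunit that has a muscle counterpart in Cox6a2. Ndufa4 (ENSMUSG00000029632) lies on the minus strand at chr6:11900292-11907497. Their promoter sequences are shown because these 2 genes differed most in direction. Of the 94 nuclear members, 75 matched a RefSeq promoter (GRCm38.p6). Each sequence ends at the base before the annotated gene and reads 5′ to 3′ on the gene's strand, chr5:115348982-115349208 for Cox6a1 and chr6:11907498-11907700 for Ndufa4, with capitals marking matches on either strand to GCGCATGC, a part of the motif of nuclear respiratory factor 1 (NRF1), a regulator of respiratory chain genes. In Cox6a1 the matches on the 2 strands overlap.
Cox6a1: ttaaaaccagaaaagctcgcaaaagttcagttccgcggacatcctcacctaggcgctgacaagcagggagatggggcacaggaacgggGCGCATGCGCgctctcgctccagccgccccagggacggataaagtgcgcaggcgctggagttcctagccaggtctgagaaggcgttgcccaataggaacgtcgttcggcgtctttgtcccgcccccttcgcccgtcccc
Ndufa4: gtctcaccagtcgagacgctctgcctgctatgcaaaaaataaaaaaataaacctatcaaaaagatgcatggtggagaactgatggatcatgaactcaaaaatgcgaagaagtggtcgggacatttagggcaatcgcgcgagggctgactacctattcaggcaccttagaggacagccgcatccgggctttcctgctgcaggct
This motif stood in the Cox6a1 window and not in that of Ndufa4. Searched on both strands of the 250 bases before each start, it was found in 9 of the 75 members (12%: Atp5g2, Atp5k, Atp5l, Cox6a1, Ndufa6, Ndufa8, Ndufa11, Ndufaf4 and Sdhb) and in 2.26% of all 32851 promoters. The ETS core CCGGAAGT was in 3 members (4%) and 2.88% of all promoters, and the GC box GGGCGG in 30 members (40%) and 32.7%. A member counted if any of its promoters matched, whereas the share of all promoters counts each promoter, so the percentages are not like measures. The matches are of letters, with no measure of binding.

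Cox6a1 had 141 CPM in WTKL and 179 CPM in LYZKL in Foxp3+ T cells (log2 ratio 0.35, 0.15 to 0.55). In CD4 T cells it had 154 and 207 CPM (0.42, 0.36 to 0.49), and in CD8 T cells 137 and 218 CPM (0.67, 0.58 to 0.77). It was higher in the LYZKL library in each of these classes. In cycling T cells it stood at 241 and 336 CPM (0.48, 0.40 to 0.56), in macrophages or monocytes at 206 and 295 CPM (0.52, 0.36 to 0.68) and in neutrophils at 154 and 207 CPM (0.43, 0.31 to 0.55). In B cells it had 136 and 153 CPM (0.16, -0.06 to 0.39), where the interval includes 0. It was thus at least 25% higher in 6 of 7 classes. No other of the 74 nuclear members measured in every class had that pattern, and 6 of the 2585 genes so measured had it (0.232%). Its log2 ratio stayed above 0 in every class under every alternative computed, from 0.12 to 0.75.

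Ndufa4 had 431 CPM in WTKL and 369 CPM in LYZKL in Foxp3+ T cells (-0.22, -0.35 to -0.10), 423 and 371 CPM in CD4 T cells (-0.19, -0.23 to -0.14) and 347 and 263 CPM in CD8 T cells (-0.40, -0.47 to -0.33). It was lower in the LYZKL library in these classes. In cycling T cells it stood at 642 and 538 CPM (-0.26, -0.31 to -0.20), in B cells at 306 and 236 CPM (-0.38, -0.54 to -0.21) and in macrophages or monocytes at 329 and 233 CPM (-0.50, -0.65 to -0.35). Neutrophils differed, with 104 and 119 CPM (0.19, 0.04 to 0.34). The number of Cox6a1 UMIs per Ndufa4 UMI, a pair chosen after the values were seen, went from 0.395 to 0.830 in CD8 T cells, 2.10 times as many (1.94 to 2.28), and from 1.48 to 1.75 in neutrophils, 1.18 times (1.03 to 1.35). Genes of this kind have processed copies elsewhere in the genome, and how reads shared with these were counted is not given in the sources used here.

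**Figure D4:**
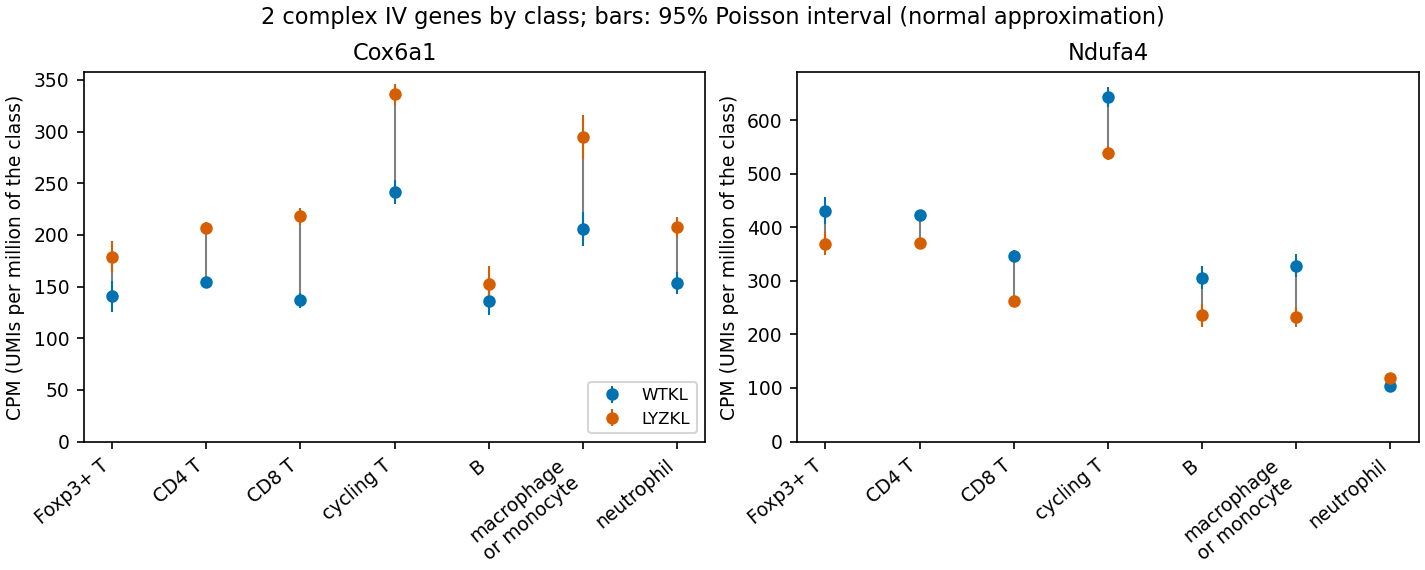
CPM of Cox6a1 (left) and Ndufa4 (right) by cell class in WTKL (blue) and LYZKL (orange); bars are 95% Poisson intervals of the UMI count by a normal approximation. Cox6a1 is higher in LYZKL in all 7 classes and Ndufa4 lower in all but neutrophils.

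Besides Cox6a1, 11 nuclear members were higher in LYZKL in every class: Cox4i1, Cox7a2, Cox7b and Cox8a of complex IV, Uqcr10 and Uqcrq of complex III, and Ndufa1, Ndufa6, Ndufa7, Ndufb9 and Ndufv3 of complex I. The 12 make up 16.2% of the 74 members measured in every class, where 5.61% of all genes so measured were higher in every class. Cox4i1, the ubiquitous isoform of the largest nuclear complex IV subunit, had 350 and 433 CPM in neutrophils but 544 and 578 CPM in cycling T cells. Ndufb9 had 121 and 160.0 CPM in CD8 T cells and 86.9 and 92.1 CPM in B cells. Lower in every class was 1 member, Ndufa8 (1.35% of members and 4.49% of all genes), by no more than 0.10 on the log2 scale and with an interval that includes 0 in each class.

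The mt- genes did not move as a block. Most mt- transcripts are cut from 1 long precursor of the heavy strand, and the plus strand of the reference holds 12 of the 13 genes, mt-Nd6 being the exception. With 9.43 and 11.2 CPM in Foxp3+ T cells, 11.3 and 7.75 CPM in CD4 T cells and 10.1 and 6.75 CPM in cycling T cells, mt-Nd6 did not reach 30 CPM in these or the other classes. mt-Nd4 with mt-Nd4l, and mt-Atp6 with mt-Atp8, overlap on the genome, so reads of one may be counted with the other.

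The complex I transcripts were lower in LYZKL in the T classes and neutrophils. mt-Nd4 had 940.2 and 689 CPM in Foxp3+ T cells (-0.45, -0.53 to -0.36), 1077 and 925 CPM in CD4 T cells (-0.22, -0.25 to -0.19) and 1093 and 901 CPM in CD8 T cells (-0.28, -0.32 to -0.24). It was also lower in cycling T cells, at 832 and 715 CPM, and in neutrophils, at 299 and 237 CPM. In B cells it stood at 1144 and 1024 CPM (-0.16, -0.24 to -0.08) and in macrophages or monocytes at 1009 and 946 CPM (-0.09, -0.17 to -0.01). mt-Nd4 was therefore lower in LYZKL in all 7 classes, as was mt-Cytb, the mitochondrial subunit of complex III, at 965 and 778 CPM in Foxp3+ T cells and 1121 and 1073 CPM in B cells. The mt-Cytb intervals include 0 in B cells and in macrophages or monocytes, and its log2 ratio was 0.07 in CD8 T cells with at least 2 naive-gene UMIs. mt-Nd3 was lower in all 6 classes in which it was measured, with the widest difference in macrophages or monocytes, at 43.5 and 30.1 CPM (-0.53, -0.96 to -0.11). It had 49.3 and 35.2 CPM in B cells, and 39.3 and 29.9 CPM in Foxp3+ T cells, where the interval includes 0.

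The other complex I genes varied. mt-Nd2 was lower in 6 classes, with 258 and 187 CPM in Foxp3+ T cells (-0.46, -0.63 to -0.29) but 316 and 326 CPM in B cells. mt-Nd1 had 1026 and 884 CPM in Foxp3+ T cells and 1387 and 1521 CPM in macrophages or monocytes. mt-Nd4l had 232 and 194 CPM in Foxp3+ T cells and mt-Nd5 had 317 and 266 CPM. All 12 measured mt- genes were lower in LYZKL in Foxp3+ T cells, 3 of them by at least 20% (mt-Nd2, mt-Nd3 and mt-Nd4, beside 8.32% of all genes), with a median of -0.23.

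The complex IV genes mt-Co1 and mt-Co2, the catalytic core, were not lower in the same way. mt-Co1 had 2652 and 2603 CPM in Foxp3+ T cells (-0.03, -0.07 to 0.02), 2775 and 2939 CPM in CD4 T cells and 3206 and 3455 CPM in CD8 T cells. It stood at 3289 and 4143 CPM in macrophages or monocytes (0.33, 0.29 to 0.37), where no other mt- gene was at least 25% higher (8.41% of all genes), and at 1161 and 1171 CPM in neutrophils. mt-Co2 had 2056 and 2335 CPM in CD8 T cells and 737 and 676 CPM in neutrophils. mt-Co3 had 932 and 816 CPM in Foxp3+ T cells and 1222 and 1280.4 CPM in CD8 T cells. Of the ATP synthase genes, mt-Atp6 had 1914 and 1687 CPM in Foxp3+ T cells and 2479 and 2205 CPM in CD8 T cells, and mt-Atp8 73.4 and 64.3 CPM in Foxp3+ T cells and 88.4 and 86.4 CPM in CD8 T cells.

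A ratio of 2 mt- genes within a library does not depend on the scaling. The pair mt-Co1 and mt-Nd4 was chosen after the values were seen, and its ratio is compared between libraries only, since UMI counts of different genes are not on one scale. mt-Co1 UMIs per mt-Nd4 UMI lay between 2.35 and 3.88 over the classes of WTKL and between 2.91 and 4.94 over those of LYZKL. The ratio was higher in LYZKL in all 7 classes, by 1.34 times in Foxp3+ T cells (1.251 to 1.433), 1.15 times in cycling T cells (1.11 to 1.19) and 1.34 times in macrophages or monocytes (1.26 to 1.43). mt-Co2 per mt-Nd4 was higher in all 7 as well, by 1.22 times in B cells (1.14 to 1.31) and 1.38 times in CD8 T cells (1.33 to 1.42). Summed by complex, mt- complex I transcripts were lower in Foxp3+ T cells, 0.282% and 0.226% of UMIs, whereas those of complex IV were 0.521% and 0.499%.

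**Figure D5:**
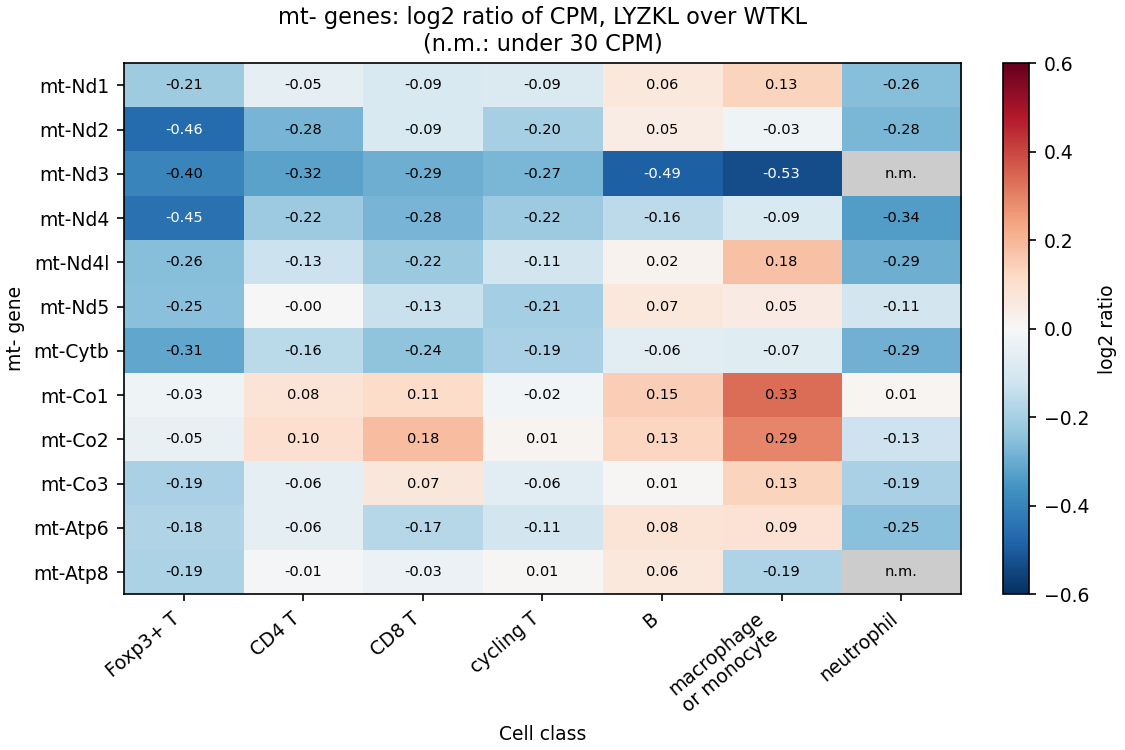
Log2 ratio of CPM, LYZKL over WTKL, of 12 mt- genes (rows) by cell class (columns), with red higher and blue lower in LYZKL; grey cells marked n.m. were below 30 CPM. mt-Nd4 and mt-Cytb are lower in all 7 classes, while mt-Co1 reaches 0.33 in macrophages or monocytes.

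For the remaining classes, the mt- median was -0.06 in CD4 T cells (10 of 12 lower), -0.11 in CD8 T cells (9 of 12) and -0.11 in cycling T cells (10 of 12). It was -0.25 in neutrophils (9 of 10 lower, and of these 1, mt-Nd4, by at least 20%, beside 10.3% of all genes). The summed mt- log2 ratio of neutrophils was -0.15 in the whole class, -0.17 in cells with no Ccl3 UMI and -0.29 in cells with at least 2. By the median over members, cells with no Ccl3 UMI had -0.40, a wider shift than the -0.25 of the whole class. In B cells 9 of 12 mt- genes were higher (median 0.05), and in macrophages or monocytes 7 of 12 (0.07). In CD8 T cells with at least 2 naive-gene UMIs the summed mt- share was higher in LYZKL, 1.57% against 1.45%, and in those with none it was 1.26% against 1.28%.

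Genes that work with the chain were read from 5 lists. Cycs, the cytochrome c that carries electrons to complex IV, had 106 and 135 CPM in neutrophils, and Cyc1, the heme subunit of complex III that the symbol rule leaves out, had 25.9 and 41.8 CPM. Gpd2, which feeds electrons from glycerol phosphate, was lower there, at 59.7 and 47.3 CPM. These were the 3 measured of 15 electron carrier and dehydrogenase genes in neutrophils, so 2 were past the limit upward (16.9% of all genes) and 1 downward (10.3%). In CD8 T cells 1 of 4 measured was past it upward (14.8%), the electron transfer flavoprotein gene Etfb, at 57.0 and 76.4 CPM.

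Enzymes of the tricarboxylic acid cycle, which supplies NADH and succinate, were higher in LYZKL in 5 of 8 cases in neutrophils, beside 2340 of 3930 genes, and in 6 of 14 in macrophages or monocytes, beside 1898 of 4409. In cycling T cells 5 of 16 measured were higher (2587 of 4915 genes; list median -0.04), and in CD4 T cells 5 of 14 (2310 of 4796; -0.05), with none past the limit. In neutrophils Mdh2, the malate dehydrogenase of the cycle, stood at 208 and 141 CPM (-0.56, -0.68 to -0.44), while Pdhb, of the pyruvate dehydrogenase complex, had 33.0 and 42.4 CPM. In macrophages or monocytes Pdhb had instead 56.7 and 32.5 CPM (-0.80, -1.21 to -0.41).

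Among assembly factors of complexes II, III and IV, Sdhaf1, which helps insert the iron-sulfur clusters of Sdhb, had 56.6 and 103 CPM in CD4 T cells (0.86, 0.75 to 0.97), 59.9 and 88.7 CPM in cycling T cells and 43.3 and 60.6 CPM in neutrophils. It was at least 25% higher in each of these and in B cells and macrophages or monocytes, where its intervals include 0. In CD8 T cells 4 of 13 measured assembly factors were at least 25% higher (Cox20, Surf1, Uqcc2 and Ttc19), beside 14.8% of all genes, and none at least 20% lower (6.14%). Of the 20 genes listed for mitochondrial DNA transcription and biogenesis, 8 were measured in Foxp3+ T cells. Tfb2m, at 26.2 and 34.5 CPM, and Slirp, at 34.8 and 43.6 CPM, were at least 25% higher (7.84% of all genes) with intervals that include 0. Ssbp1, the mitochondrial single-strand binding protein, had 67.2 and 52.2 CPM (-0.37, -0.69 to -0.04). Of the 7 genes listed for transport of ADP, phosphate and protons, which include the Vdac channel genes, all were lower in B cells, beside 1973 of 4190 genes. Of these genes 1, the channel gene Vdac1, was at least 20% lower (8.16% of all genes), at 52.3 and 35.7 CPM. In CD4 T cells 4 of the 7 were higher, beside 2310 of 4796 genes.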

How the data were processed

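The deposited matrices give UMI counts without normalization. Per the submitters' processing notes, Cell Ranger 6.1.2 and the mm10 genome were used. Gene and barcode names, also deposited, carry no unit. A barcode was used if it had 500 or more detected genes and no more than 10% mt- UMIs. Gates needed at least 2 UMIs of Cd3d, Cd3e and Cd3g for T cells or 3 of the B cell, macrophage or monocyte, or neutrophil markers, with at most 1 UMI, or 20% of the own sum, of any other lineage. T cells with at least 3 cycling-gene UMIs formed the cycling class. No doublet caller was run, and 1464 and 1659 cells reached the minimums of more than 1 lineage. The gamma-delta gate held 3 and 5 cells and is not described. UMIs were summed per class, and the CPM ratios carry exact conditional binomial intervals, shares exact Clopper-Pearson intervals and ratios of ratios Poisson intervals on the log scale, all at 95%. Genes were named by rule: per class the 3 highest and 3 lowest nuclear log2 ratios, the 10 widest ranges over classes, complex II, tissue isoforms and all mt- genes. Other members were named after their values were seen. Members and lists were chosen with earlier results of these data known. Alternatives were other filters, gates, scalings (edgeR 4.0.16 TMM among them), per-cell means and CPM minimums. The ratio code was tested on simulated data. Coordinates are those of GENCODE M21. One allele of the recipient mice is not reported here. Python 3.11.15, scipy 1.17.1 and R 4.3.3 were used.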

Additional observations from a re-analysis of the deposited data

Results flagged for a closer look

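The median log2 ratio of nuclear members, LYZKL over WTKL, was -0.0587 in B cells, opposite in sign to the other 6 classes. The B cell value was 0.0452 with strict gates (all genes 0.101), and that of CD8 T cells -0.0108 with TMM scaling (all genes -0.0361), so neither sign held throughout. In B cells the nuclear median lay below that of all genes under the main and the strict gates. The median of mt- members was 0.0540 in B cells and 0.0685 in macrophages or monocytes, opposite in sign to the 4 T cell classes and neutrophils. With 1 library per group the difference between classes was not tested.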

How the results depend on the processing

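Of 194 medians recomputed under alternatives, 184 moved by less than the half-width of a typical member's counting interval, 7 by more and 3 changed sign. The nuclear median of CD8 T cells went from 0.09 to -0.0108 with TMM scaling, which shifts all ratios of that class by -0.10. That of B cells went from -0.06 to 0.0452 with strict gates, where the median of all genes went from 0.0165 to 0.101. The mt- median of CD8 T cells was 0.0502 in cells with at least 2 naive-gene UMIs, -0.22 with TMM scaling and -0.15 when scaled without mt- and ribosomal protein genes. That of CD4 T cells was -0.0278 with TMM scaling. Strict gates gave mt- medians of -0.18 in cycling T cells and -0.14 in neutrophils. In neutrophils with no Ccl3 UMI the nuclear median was 0.0218 and the mt- median -0.40. For all but the TMM values the cause was not tested. Strict gates left 36 and 26 macrophages or monocytes, too few to use. Members at least 25% higher went from 24 of 74 to 3 of 66 in neutrophils with no Ccl3 UMI. At a minimum of 100 CPM, which left fewer members measured, 11 of 36 were. In CD8 T cells they went from 6 of 80 to 1 of 80 with TMM scaling. They went to 3 with no naive-gene UMI (of 80), at 100 CPM (of 55) or scaled without mt- and ribosomal protein genes (of 81). In Foxp3+ T cells they went from 3 to 6 with TMM scaling and in CD4 T cells to 5. Shares of all genes past the limit are given only for whole classes under the main scaling and for the Ccl3 splits. The other counts therefore have no such share to be read against. In B cells, members at least 20% lower went from 4 to 8 with TMM scaling and higher ones from 0 to 4 with strict gates. In CD4 T cells with no naive-gene UMI 7 were higher, where 3 were in the whole class. Of 194 such counts, 165 stayed within 1.5 times, and the others not given here lay between 0 and 5. Cox6a1 stayed higher in LYZKL in every class, and mt-Nd4 lower, under all of these, mt-Nd4 by as little as -0.0087 in CD8 T cells with at least 2 naive-gene UMIs. In those cells mt-Cytb was higher, at 0.07. The log2 ratio of mt-Co1 minus that of mt-Nd4 stayed above 0 in every class, from 0.20 to 0.63. The splits by Ccl3 and naive genes, the removal of shared barcodes and a wider macrophage gate were added after the data were seen. No paired analysis was possible because each group has 1 library. Counting intervals of nuclear members were widest in B cells (median half-width 0.28 on the log2 scale) and Foxp3+ T cells (0.20). Most of them include 0 in these classes, in cycling T cells and in macrophages or monocytes.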
